A study of Homo sapiens with 12 samples.

Results

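The 35 mRNAs described here encode chaperones and quality-control factors of the endoplasmic reticulum (ER), and were taken by gene symbol from the 58174 genes measured in both cell lines. Poly-A RNA was sequenced from Hep-G2, a hepatoblastoma cell line, and BE(2)-C, a neuroblastoma cell line, harvested 72 h after transfection with control siRNA (siC) or with siRNA directed against the mRNA-binding protein IGF2BP1 (siI1). Each of the 4 groups held 3 libraries, 12 in all, which the authors describe as biological replicates, and the p-values measure only the spread between these libraries. BE(2)-C received a higher siRNA concentration than Hep-G2 and grew in another medium, so in every difference between the lines the cell line, the dose and the medium cannot be told apart. Reads on genes ranged from 13398903 to 15176939 per library for Hep-G2 and from 12852988 to 15721210 for BE(2)-C. Levels are FPKM, fragments per kilobase of gene length scaled to library size, normalised separately for each cell line, so levels of the 2 lines stand side by side without a test. The markers of each line followed its label. The 8 hepatic markers, among them AFP and ALB, lay at 41.7 FPKM or above in Hep-G2 and at 0.199 FPKM or below in BE(2)-C, while the sympathoadrenal markers HAND2 and DBH lay at 168 FPKM or above in BE(2)-C and at 0.241 FPKM or below in Hep-G2.

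Secretory and membrane proteins enter the ER through the SEC61 channel, are bound by the chaperone BiP (encoded by HSPA5) and its cochaperones, acquire disulfide bonds with the help of protein disulfide isomerases and pass through the calnexin and calreticulin cycle if they carry N-glycans. Proteins that fail to fold are taken back to the cytosol for ER-associated degradation (ERAD), and a shortage of folding capacity is sensed by IRE1 (ERN1), PERK (EIF2AK3) and ATF6, whose signalling raises the transcription of many of these same genes. Hepatocyte-derived cells carry a large secretory load of plasma proteins, whereas sympathoadrenal cells secrete from hormone granules.

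The knockdown was visible in every siI1 library. IGF2BP1 stood at 48.6, 46.6 and 50.8 FPKM in siC of Hep-G2 against 12.6, 10.7 and 10.7 FPKM in siI1, a log2 fold change of −2.10 (SE 0.0793, limma, adjusted p = 7.83e-06). Its level in BE(2)-C was 21.3, 20.7 and 21.6 FPKM in siC against 4.85, 4.75 and 4.87 FPKM in siI1, a log2 fold change of −2.11 (SE 0.0477, limma, adjusted p = 1.48e-05). The siC and siI1 libraries did not overlap in either line.

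Most of the ER folding and quality-control mRNAs fell after IGF2BP1 depletion in Hep-G2, and fewer did so in BE(2)-C. Of the 35 members, 34 passed the filter on low values in each line. DERL3 did not, with at most 1 read in any library. In Hep-G2, 24 members were called lower by limma (adjusted p below 0.05) against 23.0% of all 19436 tested genes, and 1 was called higher against 21.9%. Their median log2 fold change was −0.44, beside 0.0069 over all tested genes. For BE(2)-C, 8 members were called lower against 14.8% of all 18656 tested genes and 4 higher against 13.3%, and the median was −0.04 beside 0.0161. Among genes with at least 1 FPKM in at least 3 libraries, the called shares were larger. They were 32.1% lower and 28.6% higher in Hep-G2, beside 24 and 1 of 34 members. In BE(2)-C they were 22.9% and 18.5%, beside 8 lower and 4 higher of 33 members, where the count lower lies near its share. Every siI1 library lay below every siC library for 25 members in Hep-G2, against 27.8% of all tested genes, and for 12 members in BE(2)-C, against 22.4%. The siI1 libraries all lay above siC for 1 member in Hep-G2 and 8 in BE(2)-C, with no share over all genes at hand. In bulk RNA, less mRNA per cell and fewer cells that express it cannot be told apart.

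**Figure D1:**
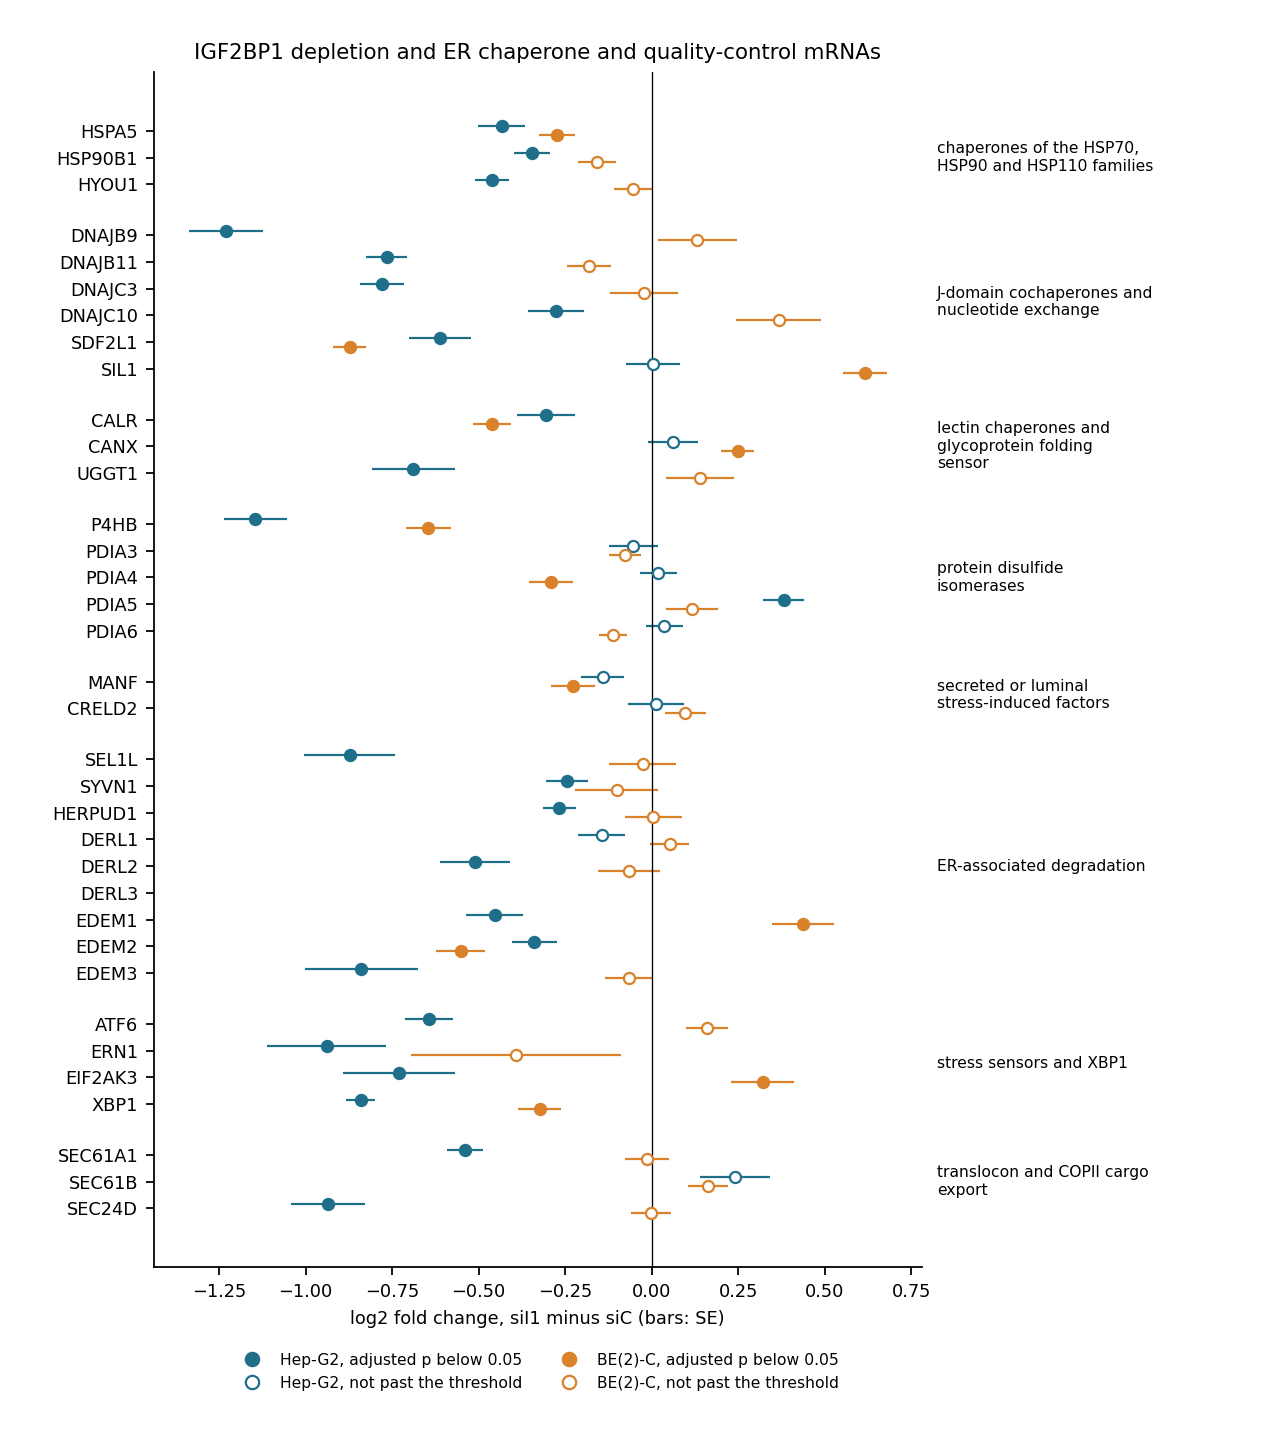
Log2 fold change (siI1 minus siC, horizontal axis) of each member in Hep-G2 and BE(2)-C, grouped by role, with bars for the SE over 3 against 3 libraries; filled points passed limma's adjusted p of 0.05. To the left of 0 lay 24 filled points in Hep-G2 and 8 in BE(2)-C.

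Because many of these genes are known targets of the unfolded protein response, their promoters were searched on both strands for 3 motifs of that response: the ER stress response element (ERSE, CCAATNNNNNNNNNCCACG), ERSE-II (ATTGGNCCACG) and the unfolded protein response element (UPRE, TGACGTGG). RefSeq promoter windows of 300 bases, from 250 bases before to 50 after the start site (GRCh38.p14), were matched for 31 of the 35 members, in 38 windows. PDIA3, DERL1, DERL3 and SEC24D had no match in the table. ERSE was held by 27 of the 35116 promoter windows (0.0769%), and 9 of these 27 belonged to 7 members. ERSE-II was held by 19 windows (0.0541%), 3 of which belonged to members. UPRE was held by 256 windows (0.729%), of which 2 were those of HYOU1 and DNAJC10. The match of CANX lay in 3 of its 4 windows, that of PDIA6 in 1 of 2 and that of XBP1 in 1 of 2. The ERSE matches, 5′ to 3′ in the orientation of the motif with its fixed letters in capitals, were as follows.
HSPA5: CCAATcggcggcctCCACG
HSP90B1: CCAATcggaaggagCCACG
HSP90B1 second site: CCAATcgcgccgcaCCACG
CALR: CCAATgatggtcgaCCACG
CANX: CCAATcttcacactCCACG
PDIA6: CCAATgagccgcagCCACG
CRELD2: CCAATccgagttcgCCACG
XBP1: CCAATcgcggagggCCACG
The ERSE-II matches, in the same form, were in HYOU1, SDF2L1 and HERPUD1.
HYOU1: ATTGGaCCACG
HYOU1 second site: ATTGGaCCACG
SDF2L1: ATTGGtCCACG
HERPUD1: ATTGGgCCACG

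The whole promoter window is given for HSPA5, HYOU1 and XBP1, with the matches in capitals. The windows lie on the minus strand of GRCh38.p14 (RefSeq) at chr9:125241294-125241593, chr11:119057156-119057455 and chr22:28800520-28800819, in that order. In HYOU1 the first capital stretch joins a UPRE on the gene's strand with an overlapping ERSE-II on the other strand, and the second is an ERSE-II on the other strand.
HSPA5: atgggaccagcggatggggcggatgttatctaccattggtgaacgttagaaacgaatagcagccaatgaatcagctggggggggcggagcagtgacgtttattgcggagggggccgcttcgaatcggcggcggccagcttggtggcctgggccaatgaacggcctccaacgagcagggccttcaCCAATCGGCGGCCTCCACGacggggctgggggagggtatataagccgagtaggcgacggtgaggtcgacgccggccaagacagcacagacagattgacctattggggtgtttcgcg
HYOU1: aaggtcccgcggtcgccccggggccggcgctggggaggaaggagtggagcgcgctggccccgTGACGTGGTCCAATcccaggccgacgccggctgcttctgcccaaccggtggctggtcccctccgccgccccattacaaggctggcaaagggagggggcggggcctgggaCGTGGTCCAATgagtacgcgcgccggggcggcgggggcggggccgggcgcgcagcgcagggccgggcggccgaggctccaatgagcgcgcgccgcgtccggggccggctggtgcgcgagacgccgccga
XBP1: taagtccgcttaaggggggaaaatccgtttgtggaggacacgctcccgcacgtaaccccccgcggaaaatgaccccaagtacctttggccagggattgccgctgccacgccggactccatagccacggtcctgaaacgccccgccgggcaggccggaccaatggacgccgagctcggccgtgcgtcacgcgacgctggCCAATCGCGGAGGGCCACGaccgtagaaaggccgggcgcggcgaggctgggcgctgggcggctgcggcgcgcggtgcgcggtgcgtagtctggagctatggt

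**Figure D2:**
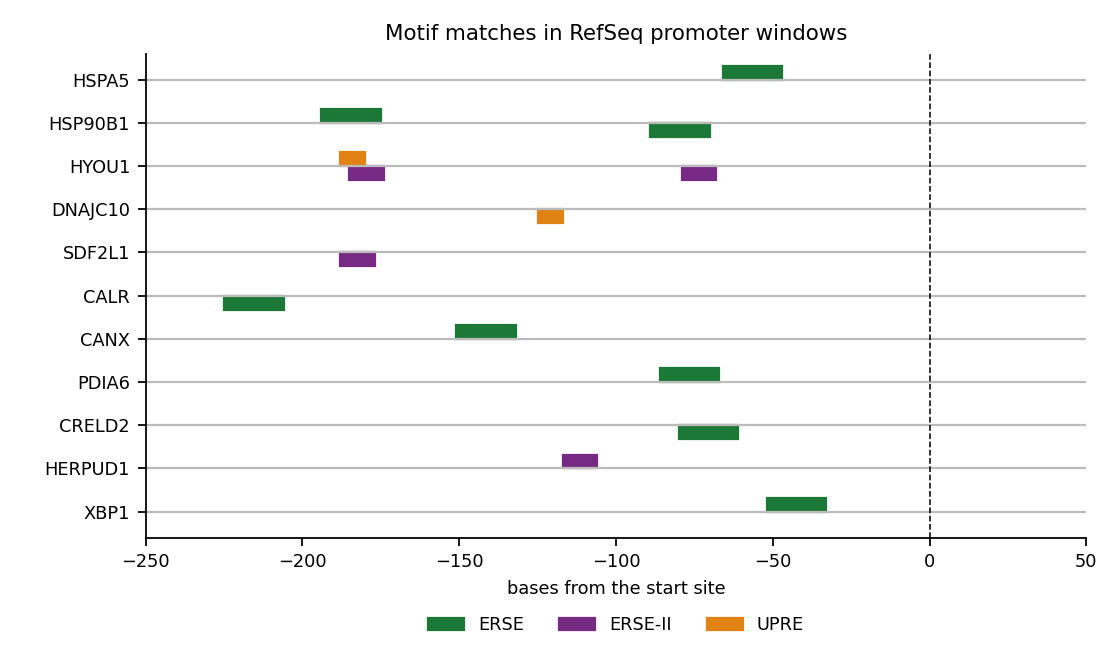
Position of each motif match in the RefSeq promoter window of the 11 members that hold a match, in bases from the start site (dashed line), with blocks above a line on the gene's strand and blocks under it on the other strand. The matches lay between 225 and 34 bases before the start site.

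Of the 10 members with an ERSE or ERSE-II, 7 were called lower by limma in Hep-G2, and the median of their log2 fold changes was −0.33. Of the 21 matched members with neither, among them DNAJC10 with its UPRE, 16 were called lower and 1 higher there, with a median of −0.54. For BE(2)-C, 4 of the 10 were called lower and 1 higher (median −0.14), beside 4 lower and 3 higher of the 21 (median −0.02). Over all tested genes the called shares were 23.0% lower and 21.9% higher in Hep-G2, against 14.8% lower and 13.3% higher in BE(2)-C, and the counts of the 21 in BE(2)-C lie near these. Whether the 2 groups differed was not tested. A match describes the letters of the window and is no sign of binding.

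HSPA5 encodes BiP, the central HSP70-type chaperone of the ER, and was among the 3 most abundant members in siC of both lines. It stood at 272, 285 and 283 FPKM in siC of Hep-G2 against 194, 214 and 214 FPKM in siI1. The BE(2)-C libraries held 253, 236 and 254 FPKM in siC against 206, 212 and 197 FPKM in siI1. The siI1 libraries were the low ones in both lines, with no overlap. HSPA5 fell by 0.43 on the log2 scale in Hep-G2 (SE 0.0667, limma, adjusted p = 0.00204) and by 0.27 in BE(2)-C (SE 0.0509, limma, adjusted p = 0.00819). The difference of −0.16 between the lines did not pass (SE 0.0823, limma, adjusted p = 0.145), although it did in 2 of 19 alternatives.

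The other chaperones of this class are HSP90B1 (GRP94), which folds integrins and Toll-like receptors, and HYOU1 (GRP170), a nucleotide exchange factor and holdase for BiP clients. HSP90B1 stood at 214, 215 and 216 FPKM in siC and at 164, 172 and 171 FPKM in siI1 of Hep-G2, and HYOU1 at 31.4, 30.8 and 31.8 FPKM in siC and at 23.6, 21.9 and 22.7 FPKM in siI1. Both were low in all 3 siI1 libraries without overlap, and fell by 0.35 (SE 0.0529, limma, adjusted p = 0.002) and by 0.46 (SE 0.0492, limma, adjusted p = 0.000389) on the log2 scale. HSP90B1 in BE(2)-C had a log2 fold change of −0.16 (limma, adjusted p = 0.0754), its highest siI1 library standing next to its lowest siC library, and HYOU1 there had −0.05 (limma, adjusted p = 0.517) with overlapping libraries. The difference between the lines passed for HYOU1 (−0.41, SE 0.0737, limma, adjusted p = 0.00116) and not for HSP90B1 (−0.19, SE 0.0741, limma, adjusted p = 0.0633), where 2 of 19 alternatives passed. Without siC replicate 1 of BE(2)-C, HSP90B1 passed there (−0.20, limma, adjusted p = 0.0296, with adjusted p from 0.0155 to 0.209 over the alternatives tried).

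Of the 6 further members that are J-domain cochaperones of BiP, bind to these or act on its nucleotide cycle, 5 were called lower by limma in Hep-G2, beside 23.0% of all tested genes. DNAJB9 (ERdj4) binds misfolded clients and represses IRE1. It stood at 16.6, 18.3 and 18.5 FPKM in siC of Hep-G2 against 8.84, 6.85 and 7.01 FPKM in siI1. Levels in BE(2)-C were 6.56, 7.07 and 8.39 FPKM in siC against 8.71, 7.11 and 8.30 FPKM in siI1. The Hep-G2 libraries formed separate groups with siI1 low, whereas the BE(2)-C groups overlapped. The log2 fold change of −1.23 for Hep-G2 (SE 0.107, limma, adjusted p = 0.000163) was the most negative of any member in either line. That for BE(2)-C was 0.13 (SE 0.114, limma, adjusted p = 0.439), and the difference between the lines was −1.36 (SE 0.167, limma, adjusted p = 8.31e-05). DNAJB9 lies at chr7:108569867-108574850 on the plus strand (GENCODE 44, GRCh38).

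DNAJB11 (ERdj3), a soluble cochaperone that hands clients to BiP, and DNAJC3 (p58IPK), which also binds PERK, showed smaller decreases in Hep-G2. DNAJB11 stood at 18.3, 18.9 and 19.4 FPKM in siC and at 10.5, 11.6 and 11.1 FPKM in siI1, and DNAJC3 at 14.1, 12.9 and 14.1 FPKM in siC and at 8.07, 7.59 and 8.14 FPKM in siI1. No siI1 library reached a siC library for either mRNA. They fell by 0.77 (SE 0.0588, limma, adjusted p = 9.58e-05) and by 0.78 (SE 0.0636, limma, adjusted p = 0.000124) on the log2 scale. Neither passed in BE(2)-C, with log2 fold changes of −0.18 (limma, adjusted p = 0.0757) and −0.02 (limma, adjusted p = 0.897). Both differences between the lines passed (−0.58, SE 0.0867, limma, adjusted p = 0.000311, and −0.76, SE 0.118, limma, adjusted p = 0.000429). DNAJB11 passed in BE(2)-C without siC replicate 1 (−0.24, limma, adjusted p = 0.0232, with adjusted p from 0.0232 to 0.212 over the alternatives).

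DNAJC10 (ERdj5), a reductase that cleaves disulfides of proteins bound for degradation, stood at 8.57, 7.96 and 8.71 FPKM in siC of Hep-G2 against 7.62, 6.49 and 6.72 FPKM in siI1. All 3 siI1 libraries were below siC, and DNAJC10 fell by 0.28 on the log2 scale (SE 0.0815, limma, adjusted p = 0.0305). It is the longest member in the tables, at 21835 nt, and with the trend of fold change on gene length removed its log2 fold change became 0.02 (limma, adjusted p = 0.81, the highest over the alternatives, from 0.00584). Its Hep-G2 call was also lost without siC replicate 1 (−0.26), siC replicate 3 (−0.25), siI1 replicate 2 (−0.23) or siI1 replicate 3 (−0.25), with median centring (−0.18) and without the mean-variance trend, with limma's adjusted p from 0.00584 to 0.104 over the 6 fits that left out a library. DNAJC10 in BE(2)-C stood at 1.03, 1.16 and 1.18 FPKM in siC against 1.499, 1.46 and 1.47 FPKM in siI1, all siI1 libraries above the siC libraries, without passing (log2 fold change 0.37, SE 0.123, limma, adjusted p = 0.0643), although it passed in 3 of 16 alternatives (limma, adjusted p from 0.000512 to 0.244).

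SDF2L1, a binding partner of DNAJB9 and DNAJB11 in BiP complexes, fell in both lines. It stood at 26.6, 30.2 and 27.8 FPKM in siC and at 16.3, 19.1 and 20.0 FPKM in siI1 of Hep-G2. Its BE(2)-C level was 101, 98.5 and 98.97 FPKM in siC against 55.2, 56.6 and 51.4 FPKM in siI1. Low values were those of siI1 in both lines, with no overlap. SDF2L1 fell by 0.61 on the log2 scale in Hep-G2 (SE 0.0901, limma, adjusted p = 0.00169) and by 0.87 in BE(2)-C (SE 0.0475, limma, adjusted p = 0.000147), the largest decrease of the members in BE(2)-C. The difference between the lines did not pass (0.26, SE 0.106, limma, adjusted p = 0.072), but did in 6 of 19 alternatives, with limma's adjusted p from 0.00477 to 0.454. It passed without siC replicate 2 (0.31) or siI1 replicate 1 (0.35) of Hep-G2, and with the opposite sign once the length trend was removed (−0.23).

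SIL1, the nucleotide exchange factor that releases ADP from BiP and whose loss causes Marinesco-Sjögren syndrome, went the other way in BE(2)-C. It stood at 11.9, 10.3 and 10.9 FPKM in siC and at 17.5, 16.9 and 16.5 FPKM in siI1 of BE(2)-C. The Hep-G2 libraries held 12.4, 13.2 and 13.3 FPKM in siC against 11.7, 13.9 and 13.5 FPKM in siI1. The BE(2)-C groups were separate, with siI1 high, and the Hep-G2 groups overlapped. SIL1 rose by a log2 fold change of 0.62 in BE(2)-C (SE 0.0638, limma, adjusted p = 0.00087), the largest increase of any member in either line, against 0.0047 for Hep-G2 (SE 0.0786, limma, adjusted p = 0.969). The difference between the lines was −0.61 (SE 0.104, limma, adjusted p = 0.000771).

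**Figure D3:**
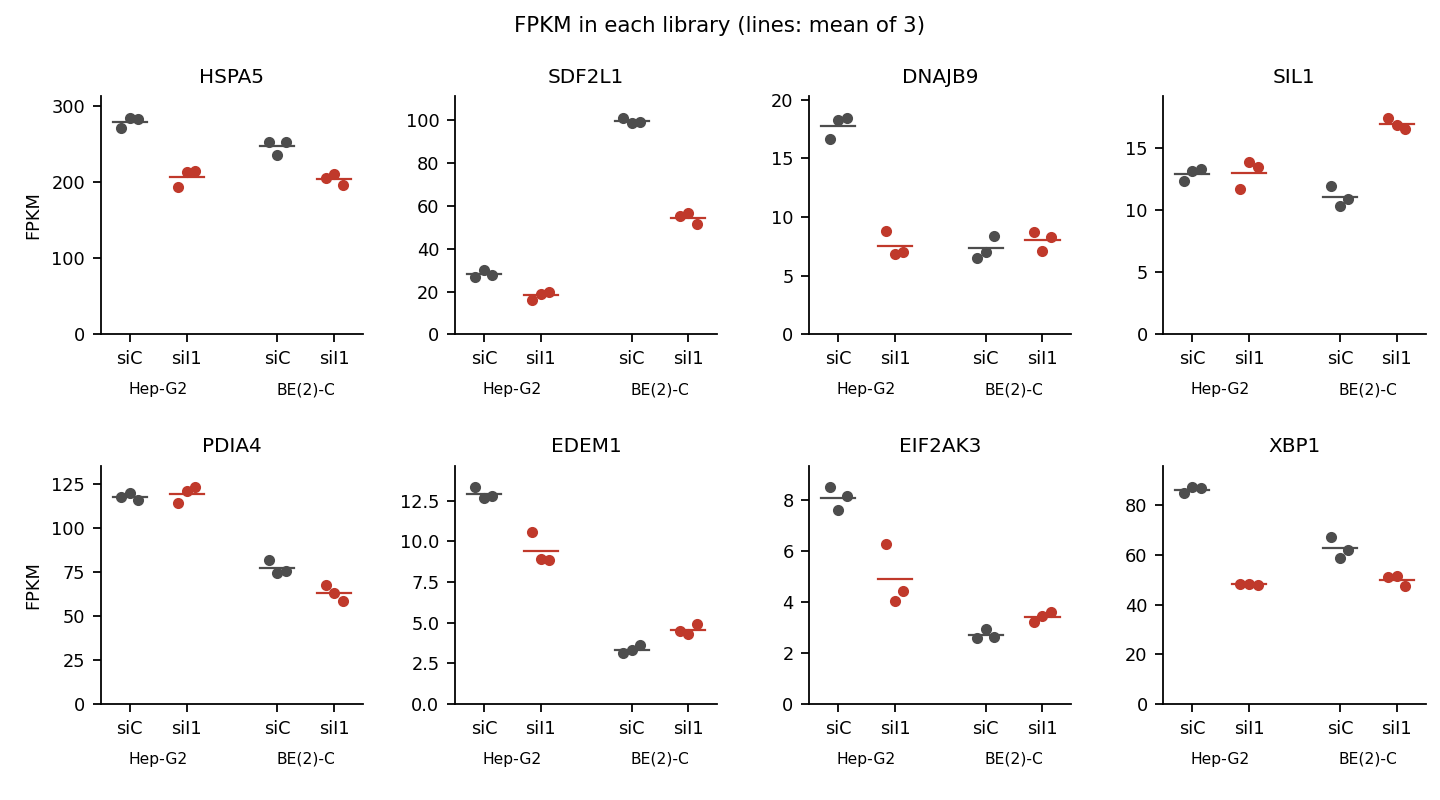
FPKM of 8 members in each library, siC in grey and siI1 in red, with a line at the mean of 3 libraries. HSPA5, SDF2L1 and XBP1 were lower in siI1 of both lines, DNAJB9 fell in Hep-G2, SIL1 rose and PDIA4 fell in BE(2)-C, and EDEM1 and EIF2AK3 fell in Hep-G2 but rose in BE(2)-C.

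Among the lectin chaperones, which hold glycoproteins with monoglucosylated N-glycans, the soluble and the membrane-bound form differed. CALR (calreticulin) was the most abundant member in siC of both lines and stood at 506, 542 and 517 FPKM in siC of Hep-G2 against 388, 441 and 441 FPKM in siI1. Its values in BE(2)-C were 511, 483 and 481 FPKM in siC against 375, 354 and 343 FPKM in siI1. All siI1 libraries were below all siC libraries of the same line. CALR fell by 0.30 in Hep-G2 (SE 0.0833, limma, adjusted p = 0.023) and by 0.46 in BE(2)-C (SE 0.0547, limma, adjusted p = 0.00144) on the log2 scale. The Hep-G2 call was lost without siC replicate 1 (−0.33), siC replicate 2 (−0.28), siC replicate 3 (−0.31) or siI1 replicate 2 (−0.33), without the filter on low values and with median centring (−0.21), with limma's adjusted p from 0.000175 to 0.08 over the alternatives.

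CANX (calnexin), the membrane-bound lectin, stood at 142, 132 and 141 FPKM in siC and at 158, 137 and 139 FPKM in siI1 of Hep-G2. The BE(2)-C libraries held 131, 141 and 143 FPKM in siC against 166, 164 and 161 FPKM in siI1. The Hep-G2 groups overlapped, and those of BE(2)-C were separate with siI1 high. CANX rose by a log2 fold change of 0.25 in BE(2)-C (SE 0.0480, limma, adjusted p = 0.00946), against 0.06 for Hep-G2 (SE 0.0736, limma, adjusted p = 0.534). The difference between the lines did not pass (−0.19, SE 0.0893, limma, adjusted p = 0.119), but did in 2 of 19 alternatives, 1 of them without siI1 replicate 1 of Hep-G2 (−0.25). With the length trend removed, CANX was called higher in Hep-G2 too (0.19, limma, adjusted p = 0.0222, with adjusted p up to 0.963 over the alternatives).

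UGGT1, the folding sensor that reglucosylates unfolded glycoproteins so that they rebind the lectins, stood at 22.7, 20.2 and 22.4 FPKM in siC of Hep-G2 against 16.2, 12.5 and 11.98 FPKM in siI1. Its siI1 replicate 1 lay between the siC libraries and the other siI1 libraries. UGGT1 fell by 0.69 on the log2 scale in Hep-G2 (SE 0.120, limma, adjusted p = 0.00352), while the BE(2)-C groups overlapped (log2 fold change 0.14, limma, adjusted p = 0.343). The difference between the lines was −0.83 (SE 0.165, limma, adjusted p = 0.0021).

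The protein disulfide isomerases did not move together. P4HB (PDI), which forms and rearranges disulfides and is also a subunit of collagen prolyl 4-hydroxylase, stood at 307, 327 and 314 FPKM in siC of Hep-G2 against 125, 152 and 153 FPKM in siI1. Levels in BE(2)-C were 141, 124 and 125 FPKM in siC against 86.9, 83.2 and 78.9 FPKM in siI1. Groups did not overlap in either line, siI1 being low, and the siI1 mean was 45.4% of the siC mean for Hep-G2 and 63.8% for BE(2)-C. P4HB fell by 1.15 in Hep-G2 (SE 0.0915, limma, adjusted p = 0.000113) and by 0.65 in BE(2)-C (SE 0.0659, limma, adjusted p = 0.000833) on the log2 scale, and the difference of −0.50 between the lines passed (SE 0.117, limma, adjusted p = 0.0055). P4HB was the only isomerase among the 5 to be called lower in both lines, and lies at chr17:81843159-81860856 on the minus strand (GENCODE 44, GRCh38).

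PDIA4 (ERp72), an isomerase found in complexes with BiP, stood at 118, 120.1 and 116 FPKM in siC and at 114, 121 and 123 FPKM in siI1 of Hep-G2, with overlap (log2 fold change 0.02, SE 0.0534, limma, adjusted p = 0.792). Its values in BE(2)-C were 81.7, 74.5 and 75.8 FPKM in siC against 67.5, 63.3 and 58.8 FPKM in siI1, all siI1 libraries being low, and PDIA4 fell by 0.29 there on the log2 scale (SE 0.0635, limma, adjusted p = 0.0151). That call was lost without siI1 replicate 2 (−0.29) or siI1 replicate 3 (−0.24) and without the mean-variance trend, with limma's adjusted p from 0.000176 to 0.0564 over the alternatives. With the sums of FPKM made equal between libraries, PDIA4 was called lower in Hep-G2 as well (−0.15, limma, adjusted p = 0.0185, with adjusted p up to 0.981 over the alternatives).

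PDIA5, an isomerase known to activate ATF6, was the 1 member called higher in Hep-G2. It stood at 16.2, 16.4 and 15.7 FPKM in siC against 19.7, 22.1 and 21.3 FPKM in siI1, with all 3 siI1 libraries high, and rose by a log2 fold change of 0.38 (SE 0.0585, limma, adjusted p = 0.00202). Its BE(2)-C groups overlapped (log2 fold change 0.12, limma, adjusted p = 0.292). PDIA3 (ERp57), the partner of the lectins, and PDIA6, which acts on BiP clients and IRE1, passed in neither line, with log2 fold changes between −0.11 and 0.04. With equal sums of FPKM, PDIA3 was called lower in Hep-G2 (−0.22, limma, adjusted p = 0.00462, with adjusted p up to 0.904 over the alternatives).

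MANF and CRELD2 are small luminal proteins that ER stress induces and that are also secreted. MANF stood at 58.8, 53.7 and 54.0 FPKM in siC and at 50.6, 47.5 and 44.2 FPKM in siI1 of BE(2)-C. The siI1 libraries were the low ones, and MANF fell by 0.23 on the log2 scale (SE 0.0633, limma, adjusted p = 0.0362). That call was lost without siC replicate 1 (−0.18), siC replicate 2 (−0.25), siC replicate 3 (−0.25), siI1 replicate 2 (−0.23) or siI1 replicate 3 (−0.18), and with the length trend removed (−0.09), and passed in 7 of 16 alternatives, with limma's adjusted p from 0.00614 to 0.252. The Hep-G2 groups of MANF overlapped (log2 fold change −0.14, limma, adjusted p = 0.11), and the difference between the lines did not pass (0.08, SE 0.0923, limma, adjusted p = 0.501). MANF was called lower in Hep-G2 in 2 of 16 alternatives, equal sums of FPKM (−0.31) and the length trend removed (−0.30), with limma's adjusted p from 0.00131 to 0.548. CRELD2 passed in neither line (log2 fold change 0.01, limma, adjusted p = 0.915 for Hep-G2, and 0.10, limma, adjusted p = 0.277 for BE(2)-C).

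The ERAD members comprise the HRD1 ligase SYVN1 and its adaptor SEL1L, the ubiquitin-like membrane protein HERPUD1, the derlins DERL1, DERL2 and DERL3 and the mannose-trimming proteins EDEM1, EDEM2 and EDEM3. In Hep-G2, 7 of the 8 tested were called lower by limma, beside 23.0% of all tested genes. The exception was DERL1, at 8.96, 9.08 and 9.48 FPKM in siC and 8.71, 8.48 and 7.71 FPKM in siI1 (log2 fold change −0.14, limma, adjusted p = 0.13), whose siI1 libraries were all below the siC libraries and which passed in 1 of 16 alternatives. For BE(2)-C, 1 of the 8 was called lower and 1 higher, near the shares of 14.8% and 13.3% over all tested genes.

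SEL1L stood at 16.0, 13.1 and 15.6 FPKM in siC of Hep-G2 against 9.66, 7.57 and 7.14 FPKM in siI1, and SYVN1 at 11.6, 12.4 and 11.1 FPKM against 9.69, 10.1 and 9.70 FPKM. No siI1 library overlapped with siC for either. SEL1L fell by 0.87 (SE 0.131, limma, adjusted p = 0.00184) and SYVN1 by 0.24 (SE 0.0616, limma, adjusted p = 0.0167) on the log2 scale. The SYVN1 call was lost without siC replicate 1 (−0.25), siC replicate 2 (−0.20) or siI1 replicate 3 (−0.23), with median centring (−0.15) and with the length trend removed (−0.14), with limma's adjusted p from 0.00227 to 0.114 over the alternatives. Neither passed in BE(2)-C (log2 fold change −0.03, limma, adjusted p = 0.873, and −0.10, limma, adjusted p = 0.579). The difference between the lines passed for SEL1L (−0.85, SE 0.169, limma, adjusted p = 0.00214) and not for SYVN1 (−0.14, limma, adjusted p = 0.445).

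EDEM1, which delivers misfolded glycoproteins to ERAD, fell in Hep-G2 but rose in BE(2)-C. It stood at 13.3, 12.6 and 12.8 FPKM in siC and at 10.6, 8.90 and 8.82 FPKM in siI1 of Hep-G2. The BE(2)-C libraries held 3.12, 3.29 and 3.62 FPKM in siC against 4.46, 4.31 and 4.92 FPKM in siI1. The groups were separate in both lines, with siI1 low in Hep-G2 but high in BE(2)-C. EDEM1 fell by 0.45 on the log2 scale in Hep-G2 (SE 0.0824, limma, adjusted p = 0.00427) and rose by 0.44 in BE(2)-C (SE 0.0899, limma, adjusted p = 0.0119), a difference of −0.89 (SE 0.121, limma, adjusted p = 0.00017). EDEM1 lies at chr3:5187646-5219958 on the plus strand (GENCODE 44, GRCh38).

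EDEM2, whose mannosidase activity starts glycan trimming for ERAD, fell in both lines. It stood at 32.2, 34.8 and 33.6 FPKM in siC of Hep-G2 against 24.4, 27.9 and 27.3 FPKM in siI1. Levels in BE(2)-C were 9.87, 9.59 and 9.13 FPKM in siC against 7.01, 6.12 and 6.30 FPKM in siI1. The siI1 libraries were lower throughout, and EDEM2 fell by 0.34 (SE 0.0658, limma, adjusted p = 0.00568) and by 0.55 (SE 0.0701, limma, adjusted p = 0.00187) on the log2 scale. EDEM3, a mannosidase that trims further, stood at 5.24, 4.59 and 5.40 FPKM in siC of Hep-G2 against 3.601, 2.41 and 2.49 FPKM in siI1, siI1 replicate 1 being the nearest to siC. EDEM3 fell by 0.84 in Hep-G2 (SE 0.165, limma, adjusted p = 0.00594) and did not pass in BE(2)-C (−0.07, limma, adjusted p = 0.53), a difference of −0.77 between the lines (SE 0.186, limma, adjusted p = 0.00656).

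DERL2, a rhomboid-like part of the retrotranslocation complex, stood at 7.58, 8.42 and 7.28 FPKM in siC of Hep-G2 against 4.77, 5.67 and 5.86 FPKM in siI1, and HERPUD1 at 19.9, 19.1 and 19.7 FPKM against 16.6, 15.9 and 16.3 FPKM. Both were low in every siI1 library, and fell by 0.51 (SE 0.101, limma, adjusted p = 0.00626) and by 0.27 (SE 0.0478, limma, adjusted p = 0.00401) on the log2 scale. Their BE(2)-C groups overlapped (log2 fold change −0.07, limma, adjusted p = 0.631, and 0.0045, limma, adjusted p = 0.973), and the difference between the lines passed for DERL2 (−0.44, SE 0.131, limma, adjusted p = 0.0189) and for HERPUD1 (−0.27, SE 0.0979, limma, adjusted p = 0.0456). The DERL2 difference was lost with the length trend removed (−0.31, limma, adjusted p = 0.115), and the HERPUD1 difference passed in only 7 of 19 alternatives.

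All 4 sensor and effector mRNAs of the unfolded protein response were called lower by limma in Hep-G2, beside 23.0% of all tested genes. XBP1 encodes the transcription factor whose mRNA IRE1 splices, and gene-level values do not separate the spliced from the unspliced form. It stood at 84.8, 87.3 and 86.9 FPKM in siC and at 48.2, 48.3 and 47.9 FPKM in siI1 of Hep-G2. Its values in BE(2)-C were 67.3, 58.7 and 62.2 FPKM in siC against 51.3, 51.4 and 47.4 FPKM in siI1. The siI1 libraries of Hep-G2 lay very close together and far below siC, and those of BE(2)-C were also below siC. XBP1 fell by 0.84 on the log2 scale in Hep-G2 (SE 0.0432, limma, adjusted p = 2.1e-05) and by 0.32 in BE(2)-C (SE 0.0623, limma, adjusted p = 0.00927), and the difference of −0.52 passed (SE 0.0761, limma, adjusted p = 0.000293).

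EIF2AK3 encodes PERK, the kinase that phosphorylates eIF2α. It stood at 8.51, 7.60 and 8.16 FPKM in siC and at 6.29, 4.04 and 4.43 FPKM in siI1 of Hep-G2. The BE(2)-C libraries held 2.59, 2.93 and 2.65 FPKM in siC against 3.20, 3.45 and 3.62 FPKM in siI1. The direction was opposite in the lines, with no overlap in either, and siI1 replicate 1 of Hep-G2 was the highest of its group. EIF2AK3 fell by 0.73 on the log2 scale in Hep-G2 (SE 0.161, limma, adjusted p = 0.00972) and rose by 0.32 in BE(2)-C (SE 0.0914, limma, adjusted p = 0.0388), a difference of −1.05 (SE 0.193, limma, adjusted p = 0.00128). The BE(2)-C call was lost without siC replicate 1 (0.29), siC replicate 3 (0.30), siI1 replicate 1 (0.37), siI1 replicate 2 (0.31) or siI1 replicate 3 (0.28) and without the filter on low values, with limma's adjusted p from 0.0153 to 0.131 over the alternatives, while the difference between the lines passed in all 19.

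ATF6 encodes the sensor that is cleaved in the Golgi to release a transcription factor. It stood at 7.47, 7.43 and 7.30 FPKM in siC and at 4.86, 4.87 and 4.39 FPKM in siI1 of Hep-G2. Levels in BE(2)-C were 6.89, 7.72 and 7.15 FPKM in siC against 8.15, 7.97 and 8.20 FPKM in siI1. The siI1 libraries were all below siC in Hep-G2 but all above siC in BE(2)-C. ATF6 fell by 0.64 on the log2 scale in Hep-G2 (SE 0.0704, limma, adjusted p = 0.000442) without passing in BE(2)-C (0.16, SE 0.0615, limma, adjusted p = 0.0982, past the threshold in 1 of 16 alternatives), and the difference of −0.80 passed (SE 0.0884, limma, adjusted p = 3.85e-05).

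ERN1 (IRE1) was the least abundant tested member, at 2.63, 2.34 and 2.64 FPKM in siC of Hep-G2 against 1.61, 1.21 and 1.05 FPKM in siI1. The siI1 libraries were the low ones, and ERN1 fell by 0.94 on the log2 scale (SE 0.173, limma, adjusted p = 0.00448). It rested on 32 to 91 reads per library in BE(2)-C, where its log2 fold change of −0.39 did not pass (SE 0.304, limma, adjusted p = 0.39), nor did the difference between the lines (−0.55, SE 0.341, limma, adjusted p = 0.229), which passed in 1 of 19 alternatives.

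The translocon and export members split as well. SEC61A1, the pore subunit of the translocon, stood at 91.1, 94.4 and 92.3 FPKM in siC of Hep-G2 against 60.9, 64.8 and 65.4 FPKM in siI1, and SEC24D, a cargo adaptor of the COPII coat, at 10.2, 9.87 and 10.6 FPKM against 6.19, 4.70 and 5.11 FPKM. Both were low in every siI1 library and fell by 0.54 (SE 0.0508, limma, adjusted p = 0.000226) and by 0.94 (SE 0.107, limma, adjusted p = 0.000528) on the log2 scale. Their BE(2)-C groups overlapped (log2 fold change −0.01, limma, adjusted p = 0.897, and −0.0015, limma, adjusted p = 0.987). Both differences between the lines passed (−0.53, SE 0.0817, limma, adjusted p = 0.000426, and −0.93, SE 0.125, limma, adjusted p = 0.000149). SEC61B, the small subunit of the same pore, passed in neither line (log2 fold change 0.24, limma, adjusted p = 0.094 for Hep-G2, and 0.16, limma, adjusted p = 0.0768 for BE(2)-C). It was called higher in 4 of 16 alternatives in Hep-G2, among them the fit without siI1 replicate 1 (0.33), with limma's adjusted p from 0.0137 to 0.408. The same held in 5 of 16 in BE(2)-C, among them the fits without siC replicate 2 (0.21) and with the length trend removed (0.35), with limma's adjusted p from 0.00204 to 0.196.

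Set side by side, 6 members were called lower by limma in both lines, CALR, EDEM2, HSPA5, P4HB, SDF2L1 and XBP1, beside 6.60% of the 15362 genes tested in both. EDEM1 and EIF2AK3 were called lower in Hep-G2 but higher in BE(2)-C, as were 2.51% of these genes. Another 16 members were lower in Hep-G2 without a call in BE(2)-C, beside 15.7%, and PDIA5 was higher there without one, beside 14.1%. CANX and SIL1 were higher and MANF and PDIA4 lower in BE(2)-C without a call in Hep-G2, beside 5.99% and 6.37%, and 5 members were called in neither line, beside 41.1%. The effect of the knockdown itself differed between the lines for 20 members, beside 40.2% of the same genes. In 18 of these 20 the fold change was the more negative in Hep-G2, as it was with a passing difference for 21.7% of the same genes. The other 2 were PDIA4 (0.31, SE 0.0835, limma, adjusted p = 0.0117) and PDIA5 (0.26, SE 0.0965, limma, adjusted p = 0.0479), in the direction of 18.5% of the genes. The PDIA4 difference was lost with equal sums of FPKM (0.12, limma, adjusted p = 0.12, from 0.00436 over the alternatives). The PDIA5 difference passed in 6 of 19 alternatives, as did the HERPUD1 difference in 7 of 19.

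Gene length moved with the fold changes, in opposite directions in the lines. Among protein-coding genes with a mean of at least 1 FPKM, placed in 5 bins by length, the median of the log2 fold changes for Hep-G2 went from 0.17 in the shortest bin (312 to 2874 nt) to −0.22 in the longest (8075 to 44058 nt). For BE(2)-C it went from −0.13 to 0.08. Over the 34 tested members, Spearman's correlation of log2 fold change with length was −0.37 for Hep-G2 and 0.37 for BE(2)-C, as a description over genes that share the same libraries. The median length of the members was 5165 nt, beside 4847 nt for tested protein-coding genes in Hep-G2. With the length trend removed from each library, an alternative chosen after seeing the data, 23 members were lower and 2 higher by limma in Hep-G2, with a median of −0.39, while 23.0% and 22.5% of all genes were. For BE(2)-C the counts became 7 lower and 5 higher, beside 12.6% and 16.3%. The difference between the lines again passed for 20 members, beside 41.0% of all genes, of which 16 were among the 20 above, while DNAJC10 (−0.18), PDIA5 (0.23), HERPUD1 (−0.21) and DERL2 (−0.31) were lost. The same fit moved HYOU1 to −0.29, EDEM2 to −0.53 and HERPUD1 to −0.17 in Hep-G2, and the differences of HYOU1, UGGT1 and PDIA4 to −0.21, −0.52 and 0.18. Beyond these fits, the part of length in the results was not tested.

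**Figure D4:**
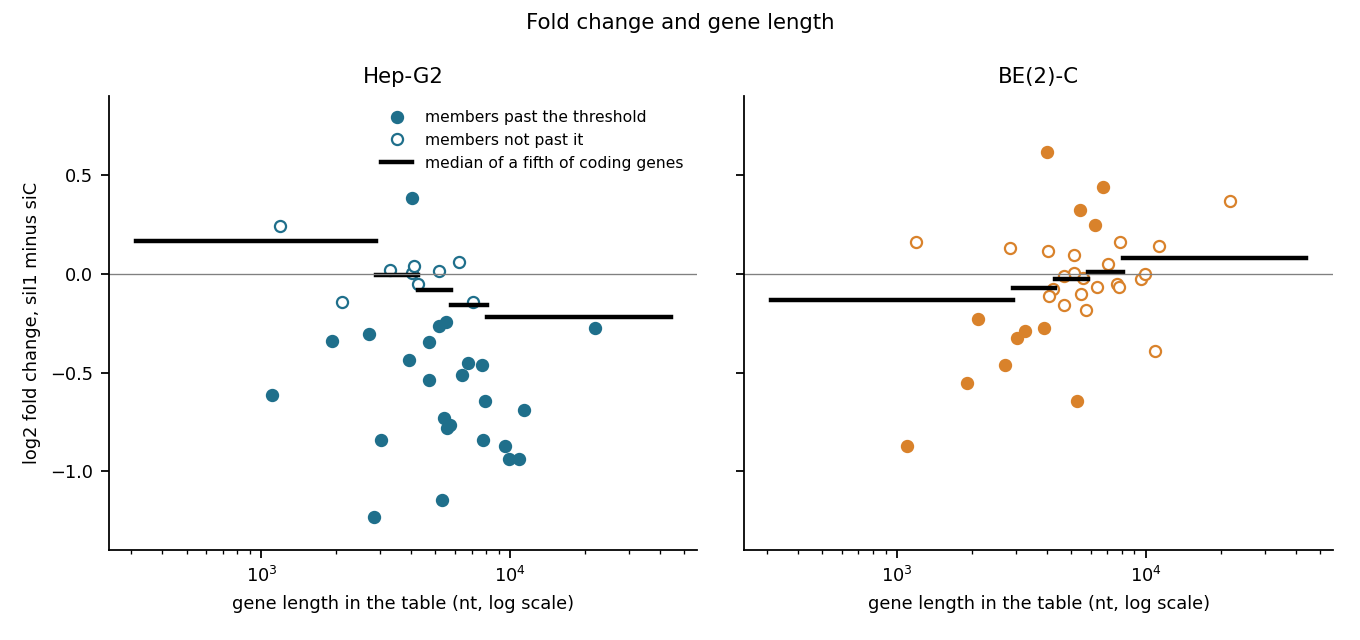
Log2 fold change (siI1 minus siC) of the 34 tested members against gene length in nt on a log axis, for Hep-G2 and BE(2)-C, with filled points past the threshold and black bars at the median of each of 5 bins of protein-coding genes. The bars went from 0.17 to −0.22 in Hep-G2 and from −0.13 to 0.08 in BE(2)-C.

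For several members of Hep-G2, among them EDEM1, EDEM3, UGGT1, SEL1L and EIF2AK3, siI1 replicate 1 stood between the siC libraries and the other siI1 libraries. Without siI1 replicate 1, 24 members were lower and 2 higher by limma, at a median of −0.40 on the log2 scale, beside 25.6% and 23.5% of all genes. The sum of FPKM over all genes was 252616, 264612 and 258542 in siC of Hep-G2 against 273699, 297453 and 300505 in siI1. Making these sums equal moved the median of all genes in Hep-G2 to −0.15, and 28 members were then lower and 1 higher by limma. The shares over all genes moved along, to 30.0% lower and 16.5% higher. The median of the members became −0.61, which is −0.46 relative to that of all genes. Among called members, CALR (−0.47), DNAJC10 (−0.44), SYVN1 (−0.41) and HERPUD1 (−0.43) moved the most in proportion. PDIA5 moved to 0.22, and the differences of PDIA5 and HERPUD1 became 0.08 and −0.46.

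As a share of all FPKM, the 35 members together held 0.982%, 0.976% and 0.986% in siC of Hep-G2 against 0.702%, 0.693% and 0.687% in siI1. For BE(2)-C they held 0.741%, 0.733% and 0.741% in siC against 0.647%, 0.657% and 0.640% in siI1. In Hep-G2 the total of all FPKM was itself larger in siI1, which adds to the fall of the share. The members' own sum was 2481, 2581 and 2549 FPKM in siC of Hep-G2 against 1922, 2060 and 2065 FPKM in siI1. For BE(2)-C this sum was 2182, 2109 and 2124 FPKM in siC against 1902, 1858 and 1793 FPKM in siI1. The siI1 libraries were the low ones in both lines and no groups overlapped, although 3 against 3 libraries cannot go below an exact permutation p of 0.1. The 5 most abundant members made up 58.7% to 59.2% of this sum in siC of Hep-G2 and 54.7% to 55.1% in siC of BE(2)-C.

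**Figure D5:**
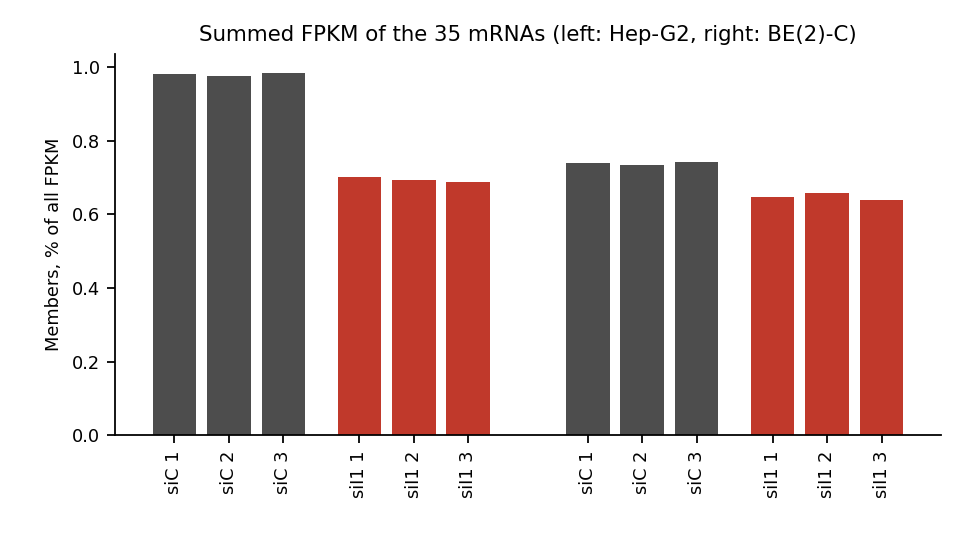
Summed FPKM of the 35 members as a percentage of all FPKM (vertical axis, from 0) in each library, Hep-G2 on the left and BE(2)-C on the right, siC in grey and siI1 in red. The siI1 libraries lay between 0.687% and 0.702% in Hep-G2 and between 0.640% and 0.657% in BE(2)-C, under all siC libraries of the same line.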

How the data were processed

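Poly-A RNA-seq of 12 libraries was used, 3 per cell line and siRNA. The deposited FPKM values were made by the authors with cutadapt 1.14, HISAT2 2.1.0 on hg38, SAMtools 1.5, featureCounts 1.5.3 and edgeR 3.30.3 with TMM scaling, separately for each cell line. Each value times gene length, divided by a scale for its library, gave whole reads (tolerance 0.05) for 100% of values. Reads per library were taken from these. The tables also hold the authors' log fold change, p-value and FDR for siI1 against siC, which were not used. Genes with at least 0.1 FPKM in at least 3 of 6 libraries of a line were tested on log2(FPKM + 0.1) with limma 3.58.1 (mean-variance trend, R 4.3.3; the package data.table in version 1.17.8), siI1 against siC within each line, and for the difference between lines, with Benjamini-Hochberg adjustment over all tested genes and a threshold of 0.05. Promoters and figures were handled with Python 3.11.15, numpy 2.4.6, pandas 2.3.3 and matplotlib 3.10.9. The fits were tested on simulated data. Alternatives were pseudocounts of 0.01 and 1, no filter, at least 1 FPKM, no trend, median centring, equal sums of FPKM, a replicate block, voom weights on the recovered reads, leaving out each library, an adjusted p below 0.01 and, added after seeing the data, removal of a gene-length trend. Members were named throughout, and from each pathway list up to 2 called genes per line with the largest change could be named, and any gene of a count of 5 or fewer. The members and lists were chosen with earlier results of these data known. Printed values are rounded.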

Additional observations from a re-analysis of the deposited data

Results flagged for a closer look

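The effect of the IGF2BP1 knockdown differed between Hep-G2 and BE(2)-C for 20 members in limma's test of the difference itself, which is the log2 fold change of Hep-G2 minus that of BE(2)-C with p adjusted over 15362 genes, of which 40.2% passed, 21.7% with the more negative fold change in Hep-G2 and 18.5% with the opposite sign. It was more negative in Hep-G2 for the chaperones and cochaperones HYOU1 (−0.41, adjusted p = 0.00116), DNAJB9 (−1.36, adjusted p = 8.31e-05), DNAJB11 (−0.58, adjusted p = 0.000311), DNAJC3 (−0.76, adjusted p = 0.000429), DNAJC10 (−0.64, adjusted p = 0.00168) and SIL1 (−0.61, adjusted p = 0.000771) by limma. The same held for the glycoprotein sensor, isomerase and ERAD members UGGT1 (−0.83, adjusted p = 0.0021), P4HB (−0.50, adjusted p = 0.0055), SEL1L (−0.85, adjusted p = 0.00214), HERPUD1 (−0.27, adjusted p = 0.0456), DERL2 (−0.44, adjusted p = 0.0189), EDEM1 (−0.89, adjusted p = 0.00017) and EDEM3 (−0.77, adjusted p = 0.00656) by limma. It also held for the sensor, effector and transport members ATF6 (−0.80, adjusted p = 3.85e-05), EIF2AK3 (−1.05, adjusted p = 0.00128), XBP1 (−0.52, adjusted p = 0.000293), SEC61A1 (−0.53, adjusted p = 0.000426) and SEC24D (−0.93, adjusted p = 0.000149) by limma. The opposite sign was seen for PDIA4 (0.31, adjusted p = 0.0117) and PDIA5 (0.26, adjusted p = 0.0479) by limma. SIL1 did not fall in Hep-G2, where its log2 fold change was 0.0047, against a rise of 0.62 in BE(2)-C. The HERPUD1 difference passed in only 7 of 19 alternatives and the PDIA5 difference in 6 of 19. Those of DNAJC10 (−0.18) and DERL2 (−0.31) were lost with the length trend removed, and that of PDIA4 with equal sums of FPKM (0.12). Since siRNA concentration and culture medium also differed between the lines, their parts and that of the cell line cannot be told apart.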

How the results depend on the processing

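Where a value below moved with a setting, the cause was not tested. With 1 library left out at a time, the members called lower in Hep-G2 ranged from 21 to 24, those called higher from 1 to 2 and the median log2 fold change from −0.4425 to −0.4034. The same fits gave 6 to 9 lower, 3 to 5 higher and a median of −0.0646 to −0.0225 in BE(2)-C, and 18 to 26 members whose effect differed between the lines. Over all genes they called 17.8% to 25.6% lower and 17.1% to 23.5% higher in Hep-G2. For BE(2)-C the shares were 10.2% to 12.4% lower and 8.14% to 11.3% higher, and for the difference 34.7% to 46.0%. A replicate block, where same-numbered libraries correlated at 0.0625, 0.0351 and −0.0062 in Hep-G2 and at 0.0225, −0.0102 and −0.0028 in BE(2)-C, gave 24 lower and 2 higher in Hep-G2, 8 lower and 3 higher in BE(2)-C and 22 differing members. Its shares over all genes were 23.2% lower and 22.2% higher, 13.6% lower and 11.5% higher, and 41.0% differing, in that order. Among members, EIF2AK3 in BE(2)-C (limma, adjusted p = 0.0605, from 0.0153 to 0.131 over the alternatives) and the PDIA5 difference did not pass under the block, while SEC61B in Hep-G2 and the differences of HSP90B1, SDF2L1 and EDEM2 did. For Hep-G2, voom weights gave 24 lower and 2 higher and the fit without a mean-variance trend 23 and 1. The same 2 fits gave 10 lower with 6 higher and 6 lower with 5 higher in BE(2)-C. Voom weights also moved the shares over all genes, to 24.8% lower with 23.5% higher for Hep-G2. Under voom the BE(2)-C shares became 17.8% lower with 17.2% higher. Without the trend, 21.3% of all tested Hep-G2 genes were lower (20.7% higher), beside 11.8% (11.9% higher) for BE(2)-C. Median centring gave 21 lower, 2 higher and a median of −0.3511 in Hep-G2, and 7 lower, 7 higher and a median of −7e-04 in BE(2)-C. Over all genes it called 19.0% lower and 25.8% higher in Hep-G2, where their median became 0.0882. For BE(2)-C these shares were 12.8% and 15.4%, with a median of 0.0531. Equal sums of FPKM gave medians of −0.6098 and −0.0203 for the members, and turned PDIA4 in Hep-G2 to −0.1473 and the PDIA3 difference to −0.1634, both then past the threshold. Removing the gene-length trend, chosen after seeing the data, gave 2 higher and a median of −0.3861 in Hep-G2 and a median of −0.0593 in BE(2)-C. It turned DNAJC10 in Hep-G2 to 0.0205 and the differences of SDF2L1, MANF and SEC61B to −0.2313, −0.215 and −0.3945. At an adjusted p below 0.01, 6 members were lower and 2 higher in BE(2)-C, beside 7.91% and 6.11% of all genes. Of all values tried for single genes, 1841 kept direction and side of the threshold, 101 no longer passed and 22 newly passed in the same direction, and 39 changed sign. For the differences these counts were 612, 32, 22 and 14. In 37 of the 39 and 10 of the 14, neither fit passed. Of these, equal sums of FPKM moved SIL1, CANX, PDIA6 and CRELD2 in Hep-G2 to −0.1612, −0.1052, −0.1298 and −0.152, SEC61A1 and SEC24D in BE(2)-C to 0.0064 and 0.0183, and the differences of CALR, PDIA6, MANF and SEC61B to −0.0305, −0.0377, −0.1018 and −0.1091. Median centring moved PDIA3 in Hep-G2 to 0.0392, and DNAJC3, SEL1L, SEC61A1 and SEC24D in BE(2)-C to 0.0175, 0.013, 0.0262 and 0.0379. Without the length trend, PDIA4, DERL1 and SEC61B in Hep-G2 stood at −0.0162, 0.0101 and −0.0479, SEC61A1 in BE(2)-C at 0.0257, and the differences of CALR and EDEM2 at −0.0482 and −0.1208. With 1 library left out, the values in Hep-G2 ranged from −0.0453 to 0.0798 for SIL1, −0.0033 to 0.1003 for CANX, −0.0937 to 0.01 for PDIA3, −0.0026 to 0.0522 for PDIA4 and −0.0288 to 0.0661 for CRELD2. The same fits in BE(2)-C ranged from −0.0931 to 0.0718 for DNAJC3, −0.1131 to 0.0188 for SEL1L, −0.1679 to 0.0101 for SYVN1, −0.0677 to 0.069 for HERPUD1, −0.0665 to 0.0353 for SEC61A1 and −0.0299 to 0.0376 for SEC24D, and the PDIA3 difference from −0.0165 to 0.0872. ERN1 in BE(2)-C rested on 32 to 91 reads per library, and the part of depth in its result was not tested.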

Other observations

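Beyond the members, 98 of 99 genes of ER pathway lists were tested in Hep-G2, where 53 were called lower and 18 higher by limma, and 96 in BE(2)-C, where 29 were called lower and 12 higher. Over all tested genes, the called shares were 23.0% lower and 21.9% higher for Hep-G2, against 14.8% lower and 13.3% higher for BE(2)-C, and some of the counts that follow lie near these shares. SPCS3, a signal peptidase subunit, had the largest change of these lists in Hep-G2, at 17.8, 17.2 and 17.6 FPKM in siC against 3.38, 3.53 and 3.41 FPKM in siI1 (log2 fold change −2.32, SE 0.0568, limma, adjusted p = 2.53e-06). Its groups were also separate in BE(2)-C, with siI1 low (log2 fold change −0.69, SE 0.0883, limma, adjusted p = 0.00197). Of the 15 translocon and signal peptidase genes, Hep-G2 had 8 lower and 3 higher, among them SSR3 (−1.19, limma, adjusted p = 1.5e-05), and BE(2)-C had 3 lower and 1 higher, among them SPCS1 (−0.34, limma, adjusted p = 0.00449). The 11 oligosaccharyltransferase genes held 4 lower and 4 higher for Hep-G2, among them TUSC3 (−1.50, limma, adjusted p = 0.000344) and OST4 (0.67, limma, adjusted p = 0.00144), and 3 higher for BE(2)-C, among them MAGT1 (0.34, limma, adjusted p = 0.0127). Of the 11 genes of glycan trimming and lectins, Hep-G2 had 4 lower and 3 higher, while BE(2)-C had 5 lower and 1 higher. MOGS, the glucosidase that starts trimming, was low in every siI1 library of both lines, with log2 fold changes of −1.36 (limma, adjusted p = 9.63e-06) and −1.01 (limma, adjusted p = 0.000494).

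Of the 13 genes of oxidative folding, 10 were lower by limma in Hep-G2, with QSOX1 (−1.68, limma, adjusted p = 8.86e-05) and ERO1A (−0.82, limma, adjusted p = 0.000301) among the lower, whereas BE(2)-C had 4 lower and 2 higher, TMX4 (0.59, limma, adjusted p = 0.000795) and TMX1 (0.45, limma, adjusted p = 0.021). The TMX1 call was lost without siI1 replicate 2 (0.41) or siI1 replicate 3 (0.44) and without the mean-variance trend. The 16 ERAD ligase and extraction genes counted 8 lower against 2 higher for Hep-G2, and 6 against 3 for BE(2)-C, where UFD1 had −0.58 (limma, adjusted p = 0.000616). Other stress transducers and proteases counted 5 lower and 2 higher of 8 for Hep-G2, with CREB3L2 at −1.31 (limma, adjusted p = 0.00022), while 3 of 6 were lower and 1 higher for BE(2)-C, with MBTPS2 at −0.60 (limma, adjusted p = 0.00926). The 9 genes of the PERK and ATF4 arm counted 5 lower and 3 higher for Hep-G2, with ASNS at −1.13 (limma, adjusted p = 5.02e-05), and 5 lower for BE(2)-C. Its 3 genes higher in Hep-G2 were all lower in BE(2)-C, ATF3 (0.75, limma, adjusted p = 0.00129, against −0.99, limma, adjusted p = 0.000463), TRIB3 (0.30, limma, adjusted p = 0.0181, against −0.73, limma, adjusted p = 0.00589) and DDIT3 (0.51, limma, adjusted p = 0.0304, against −0.54, limma, adjusted p = 0.00673). The Hep-G2 call of TRIB3 was lost without siC replicate 1 (0.24), siI1 replicate 2 (0.27) or siI1 replicate 3 (0.27), without the mean-variance trend and with equal sums of FPKM (0.13). That of DDIT3 was lost without siC replicate 1 (0.56), siC replicate 2 (0.53), siC replicate 3 (0.45), siI1 replicate 2 (0.48) or siI1 replicate 3 (0.38), and passed in 7 of 16 alternatives, with 0.35 for equal sums of FPKM and 0.24 for the length trend removed. COPII coat and retrieval genes counted 9 lower and 1 higher of 15 for Hep-G2, with KDELR3 lower (−1.09, limma, adjusted p = 1.4e-05) and KDELR1 higher (0.57, limma, adjusted p = 0.0025), while BE(2)-C had 3 lower and 1 higher. Chaperones of the cytosol and mitochondria counted 8 lower and 2 higher of 14 for Hep-G2, and 6 against 2 for BE(2)-C, with DNAJB1 low in siI1 of each (−0.66, limma, adjusted p = 0.000172, and −0.43, limma, adjusted p = 0.00336).

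Markers of the cell lines moved as well. Of the 8 hepatic markers, 5 were higher and 2 lower by limma in Hep-G2. TF, which encodes transferrin, stood at 230, 231 and 229 FPKM in siC of Hep-G2 against 811, 915 and 904 FPKM in siI1, with no overlap (log2 fold change 1.93, SE 0.0767, limma, adjusted p = 9.34e-06). Of the 10 markers of BE(2)-C, 4 were lower and 3 higher by limma in that line. HAND2, a transcription factor of sympathoadrenal cells, stood at 291, 290.4 and 274 FPKM in siC of BE(2)-C against 174, 172 and 168 FPKM in siI1, with siI1 low throughout (log2 fold change −0.73, SE 0.0448, limma, adjusted p = 0.000169). DBH was also lower there (−0.37, limma, adjusted p = 0.0128), a call lost without siI1 replicate 3 (−0.34), whereas TH (0.61, limma, adjusted p = 0.00369), STMN2 (0.58, limma, adjusted p = 0.000494) and CHGA (0.39, limma, adjusted p = 0.00792) were higher in every siI1 library of BE(2)-C.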
